A study of Mus musculus with 6 samples.

Results

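The genes described here are 9 myelin and oligodendrocyte genes, *Mbp*, *Mobp*, *Mal*, *Mag*, *Mog*, *Cldn11*, *Cnp*, *Olig1* and *Sox10*, chosen by name from the 31053 genes in a count table of mouse cerebellum. All 9 were found by their Ensembl identifiers and all 9 passed the filter on low counts, which left 10889 genes for testing. Bulk RNA sequencing compared wild-type mice (WT, 2 libraries) with knock-in knock-out mice (KIKO, 3 libraries). KIKO mice carry a knock-in allele together with a knocked-out allele of the targeted gene, and are used as a model of Friedreich's ataxia. No treatment is named for either genotype, and the labels give cerebellum and genotype but neither age, sex nor cell sorting. The methods of the study describe CD45+/CD11b+ cells (microglia and macrophages) taken from adult cerebellum by magnetic sorting. They also describe microglia cultured from the cerebellum of mice a few days old. The labels do not say which preparation these libraries came from. A further WT replicate, number 3, was not analysed here. Nothing in the labels says that the libraries came from separate animals, so the p-values measure only the spread between these libraries.

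Myelin is the membrane that oligodendrocytes wrap around axons in the central nervous system, and it speeds the conduction of nerve impulses. Its compacted layers are held together by proteins such as myelin basic protein, while other proteins sit at the axon-facing or outer surface, at the tight junctions or in the cytoplasmic channels. Transcription factors of the OLIG and SOX families set up the lineage and switch these genes on. *Mbp* mRNA is known to be carried out of the cell body into the myelin-forming processes, where it is translated.

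The libraries held between 1013107 and 1351339 counts, and 3 counts corresponded to between 2.28 and 3.04 normalized CPM (counts scaled by library size and a TMM factor). KIKO replicate 2 stood apart from the other libraries. Its correlation with them across genes lay between 0.672 and 0.747, against between 0.884 and 0.931 among the other 4. The nuclear long noncoding RNA *Malat1* made up 0.0797% of its counts and between 2.51% and 3.68% of the others. Fold changes and counts of genes past the thresholds are therefore also given without it. Microglial genes were present in all 5 libraries, but so were genes of neurons and of the choroid plexus, so the libraries did not hold microglial RNA alone.

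Promoter sequences are shown for 3 of the 9 genes because they contain matches to motifs of factors of this lineage and because the genes differed in how steady they were between libraries. *Mobp* varied several-fold whereas *Mag* and *Cnp* varied less. RefSeq (GRCm38.p6) gave a window of 250 bases upstream of the start for 6 of the 9 genes, and *Mbp*, *Olig1* and *Sox10* are named only. Both strands were searched for ACAAAG, a core motif of SOX factors that reads CTTTGT on the other strand, and for CTGGCAC, a core motif of the myelin regulatory factor Myrf. Capitals mark these matches, and each sequence is written 5′ to 3′ on the strand of the gene. The windows lie at chr9:120149492-120149741 (plus strand) for *Mobp*, chr7:30914864-30915113 (minus strand) for *Mag* and chr11:100574689-100574938 (plus strand) for *Cnp*. The gene positions given below come from GENCODE, whose starts differ from those of RefSeq. Each of these windows therefore reaches into the gene span printed below.
Mobp: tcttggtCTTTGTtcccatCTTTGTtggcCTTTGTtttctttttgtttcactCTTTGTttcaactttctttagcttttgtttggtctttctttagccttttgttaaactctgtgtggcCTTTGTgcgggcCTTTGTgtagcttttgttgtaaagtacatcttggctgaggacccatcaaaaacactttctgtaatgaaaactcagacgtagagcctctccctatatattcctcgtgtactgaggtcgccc
Mag: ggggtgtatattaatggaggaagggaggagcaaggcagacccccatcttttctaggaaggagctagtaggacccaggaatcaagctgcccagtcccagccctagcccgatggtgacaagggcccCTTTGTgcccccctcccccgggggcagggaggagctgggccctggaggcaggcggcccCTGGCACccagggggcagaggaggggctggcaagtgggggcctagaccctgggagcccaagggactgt
Cnp: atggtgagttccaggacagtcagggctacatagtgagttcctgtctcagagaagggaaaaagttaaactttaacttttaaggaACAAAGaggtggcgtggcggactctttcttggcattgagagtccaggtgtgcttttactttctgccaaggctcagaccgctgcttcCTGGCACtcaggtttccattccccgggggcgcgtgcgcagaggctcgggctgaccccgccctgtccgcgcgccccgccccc

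The *Mobp* window held 6 matches to the SOX motif and 0 to the Myrf motif. The windows of *Mag* and *Cnp* each held 1 match to each motif, and those of *Mog*, *Mal* and *Cldn11* held 0 of either. Among 32851 windows of the same length, 16.5% held the SOX motif and 4.19% the Myrf motif. The window of *Mobp* was the 1 window (0.00304%) with 6 or more SOX motifs, a number chosen after the sequence was seen. A match describes letters and not a bound site. Whether the motifs bear on how steady a gene was between libraries was not tested.

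Myelin basic protein, encoded by *Mbp* (chr18:82475146-82585637, plus strand; all gene positions are on GRCm38, the build called mm10), presses the inner faces of the membrane together. Its normalized level was 1265 and 4883 CPM in WT replicates 1 and 2, and 1055, 7456 and 1811 CPM in KIKO replicates 1, 2 and 3. The library numbered 2 was the highest in each genotype, and the groups overlapped. The highest library exceeded the lowest by 7.07-fold, the widest range among the 9 genes. The WT mean was 3074 ± 2558 CPM (SD, n = 2) and the KIKO mean 3441 ± 3498 CPM (SD, n = 3), so the difference was far smaller than the spread within either genotype. The log2 fold change, KIKO over WT, was 0.16 (SE 0.89, 95% confidence interval from -1.88 to 2.21). In edgeR's quasi-likelihood test its p was 0.86 and its Benjamini-Hochberg adjusted p was 1. Without KIKO replicate 2 the log2 fold change of *Mbp* was -1.11 (SE 0.38, 95% confidence interval from -1.89 to -0.33), with an unadjusted p of 0.00718 and an adjusted p of 0.421 in the same test.

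*Mobp* (chr9:120149707-120181484, plus strand) encodes another small basic protein of compact myelin. It was at 338 and 1165 CPM in WT replicates 1 and 2, and at 394, 1728 and 802 CPM in KIKO replicates 1, 2 and 3. Libraries numbered 2 were again the highest of their genotype, over a range of 5.12-fold. Group means were 751 ± 585 CPM (SD, n = 2) in WT and 975 ± 683 CPM (SD, n = 3) in KIKO. KIKO over WT, its log2 fold change was 0.37 (SE 0.72, 95% confidence interval from -1.26 to 2.01, edgeR adjusted p = 1). It was -0.34 without KIKO replicate 2. Exons of *Mobp* share positions with *Gm38642* on the same strand, so the counts of these genes cannot be fully told apart.

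*Mal* (chr2:127633226-127656695, minus strand) encodes a proteolipid of compact myelin that takes part in sorting membrane to the sheath. It was at 102 and 187 CPM in WT and at 154, 279 and 203 CPM in KIKO. KIKO replicate 2 was the highest library and WT replicate 1 the lowest, and the groups overlapped. The log2 fold change was 0.55 (SE 0.44, 95% confidence interval from -0.45 to 1.55, edgeR adjusted p = 1), and 0.29 without KIKO replicate 2.

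**Figure D1:**
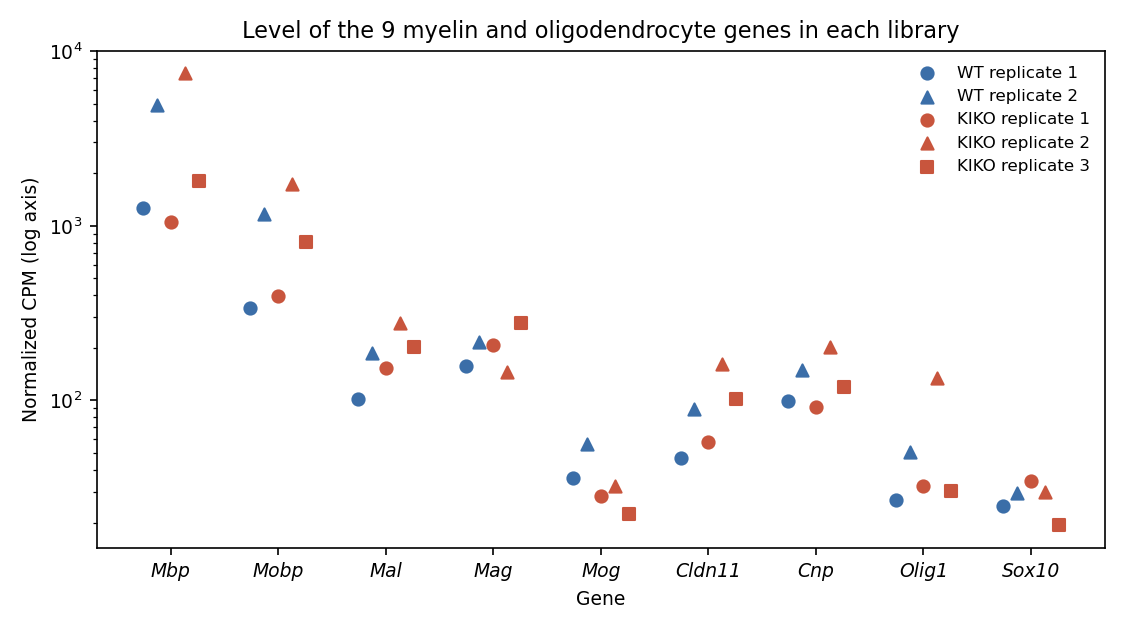
Normalized CPM (log axis) of the 9 genes, with 1 point per library; colour stands for genotype (blue WT, red KIKO) and shape for replicate number (circle 1, triangle 2, square 3). For *Mbp* the triangles, at 4883 and 7456 CPM, lie above the other points, which reach 1811 CPM, while the 5 points of *Sox10* lie between 19.3 and 34.7 CPM.

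The genes of surface, junction and channel proteins had narrower ranges than *Mbp* and *Mobp*, between 1.91-fold for *Mag* and 3.47-fold for *Cldn11*. *Mag* (chr7:30899176-30914873, minus strand) encodes the adhesion protein on the myelin face next to the axon. It was at 158 and 217 CPM in WT and at 207, 145 and 276 CPM in KIKO. KIKO replicate 2, the highest library for 6 of the 9 genes, was the lowest for *Mag*. Its means were 188 ± 41.4 CPM (SD, n = 2) in WT and 209 ± 65.8 CPM (SD, n = 3) in KIKO, and its log2 fold change was 0.16 (SE 0.41, 95% confidence interval from -0.78 to 1.09, edgeR adjusted p = 1). It was 0.35 without KIKO replicate 2.

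*Mog* (chr17:37010743-37023398, minus strand) encodes a glycoprotein of the outermost myelin surface. It was at 35.9 and 56.1 CPM in WT and at 28.4, 32.5 and 22.3 CPM in KIKO. All 3 KIKO libraries lay below both WT libraries, and *Mog* was the 1 gene of the 9 whose groups did not overlap. Over all tested genes, the groups did not overlap with KIKO lower in 8.51% and with KIKO higher in 8.2%, where 0 of the 9 were found. The means were 46.0 ± 14.3 CPM (SD, n = 2) and 27.7 ± 5.1 CPM (SD, n = 3). For *Mog* the log2 fold change, KIKO over WT, was -0.73 (SE 0.45, 95% confidence interval from -1.77 to 0.31), with an unadjusted p of 0.145 and an adjusted p of 1 in edgeR's test. Without KIKO replicate 2 it was -0.86 (SE 0.41), with an unadjusted p of 0.0454 and an adjusted p of 0.594 in edgeR's test. The gene had between 22 and 74 counts per library.

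*Cldn11* (chr3:31149920-31164324, plus strand) encodes the claudin of the tight junctions between myelin layers. It was at 46.8 and 89.5 CPM in WT and at 57.6, 162 and 102 CPM in KIKO. The highest KIKO library and the highest WT library were both numbered 2, and the groups overlapped. Its log2 fold change was 0.65 (SE 0.52, 95% confidence interval from -0.55 to 1.85, edgeR adjusted p = 1), and 0.20 without KIKO replicate 2.

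*Cnp* (chr11:100574904-100591729, plus strand) encodes an enzyme of the cytoplasmic channels of myelin. Its level was 99.6 and 149 CPM in WT and 91.5, 201 and 119 CPM in KIKO. Its libraries numbered 2 were the highest of each genotype, over a range of 2.2-fold. For *Cnp* the log2 fold change was 0.14 (SE 0.44, 95% confidence interval from -0.87 to 1.15, edgeR adjusted p = 1), and -0.26 without KIKO replicate 2. Exons of *Cnp* overlap those of *Dnajc7* on the opposite strand, and the strand setting of the counting is not given in the sources used here.

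The transcription factors differed from each other. *Olig1* (chr16:91269772-91271933, plus strand) encodes a basic helix-loop-helix factor of the oligodendrocyte lineage. It was at 26.9 and 50.8 CPM in WT and at 32.3, 135 and 30.4 CPM in KIKO. KIKO replicate 2 was 4.31 times the mean of the other KIKO libraries. The log2 fold change was 0.76 (SE 0.72, 95% confidence interval from -0.89 to 2.41, edgeR adjusted p = 1), and it was -0.33 without KIKO replicate 2. *Olig1* overlaps *Gm15966* on the opposite strand.

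*Sox10* (chr15:79154908-79165240, minus strand) encodes a SOX factor present from precursor to mature oligodendrocyte. It was at 24.9 and 29.6 CPM in WT and at 34.7, 30.1 and 19.3 CPM in KIKO. No library stood out, and the range of 1.8-fold was the narrowest of the 9 genes. The means were 27.2 ± 3.31 CPM (SD, n = 2) and 28 ± 7.92 CPM (SD, n = 3), with a log2 fold change of 0.04 (SE 0.50, 95% confidence interval from -1.09 to 1.18, edgeR adjusted p = 1), or -0.01 without KIKO replicate 2.

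Levels of different genes were compared per length of exon. Mean normalized CPM per kilobase over the 5 libraries was 389 for *Mbp*, 129 for *Mobp*, 66.6 for *Mal*, 49.3 for *Mag*, 49.1 for *Cldn11*, 36.2 for *Cnp*, 25.5 for *Olig1*, 20.6 for *Mog* and 9.09 for *Sox10*. *Mbp* was above *Mobp* in all 5 libraries, and *Mobp* above *Mal* in all 5, although the ranges over libraries of these neighbours overlapped. The order from *Mal* to *Mog* was not the same in every library. *Sox10*, whose highest library was at 11.4 CPM per kilobase, lay below the lowest library of *Mog*, at 13.1. With the longest coding transcript as the length in place of all exons, *Mag* (82.4) came before *Mal* (66.6) and *Cnp* (56.0) before *Cldn11* (49.1). The same was true of mean CPM without any length, at 201 for *Mag*, 185 for *Mal*, 132 for *Cnp* and 91.7 for *Cldn11*. Whether counts rise with exon length in these libraries was not tested, so the order per kilobase depends on that assumption.

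The 9 genes did not vary together to the same extent. Summed over the 9, WT replicates 1 and 2 held 2097 and 6827 normalized CPM, and KIKO replicates 1, 2 and 3 held 2055, 10168 and 3385. *Mbp* alone made up between 51.3% and 73.3% of the counts of the 9, with the highest shares in the libraries numbered 2. The sum of *Mag*, *Mog* and *Sox10*, a set not fixed in advance, was 219 and 303 CPM in WT and 271, 207 and 318 CPM in KIKO. It was lowest in KIKO replicate 2, where *Mag* was at its lowest but *Mog* and *Sox10* were not. In WT it was higher in replicate 2, as was the sum over all 9.

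Ratios of counts to *Mag* within a library, which do not depend on scaling, also differed between libraries. *Mag* itself was lowest in KIKO replicate 2, at 145 CPM, which raises each ratio there. There were 7.99 and 22.5 counts of *Mbp* per count of *Mag* in WT replicates 1 and 2, and 5.09, 51.6 and 6.56 in KIKO replicates 1, 2 and 3. For *Mobp* the ratio to *Mag* was 2.13 and 5.37 in WT and 1.90, 12 and 2.90 in KIKO. For *Mal* it was 0.642 and 0.864 in WT and 0.741, 1.93 and 0.735 in KIKO. KIKO replicate 2 had the highest ratio to *Mag* for each of these genes and WT replicate 2 the next highest. Ratios to the other genes were not computed, so the size and order of these ratios may depend on *Mag*.

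**Figure D2:**
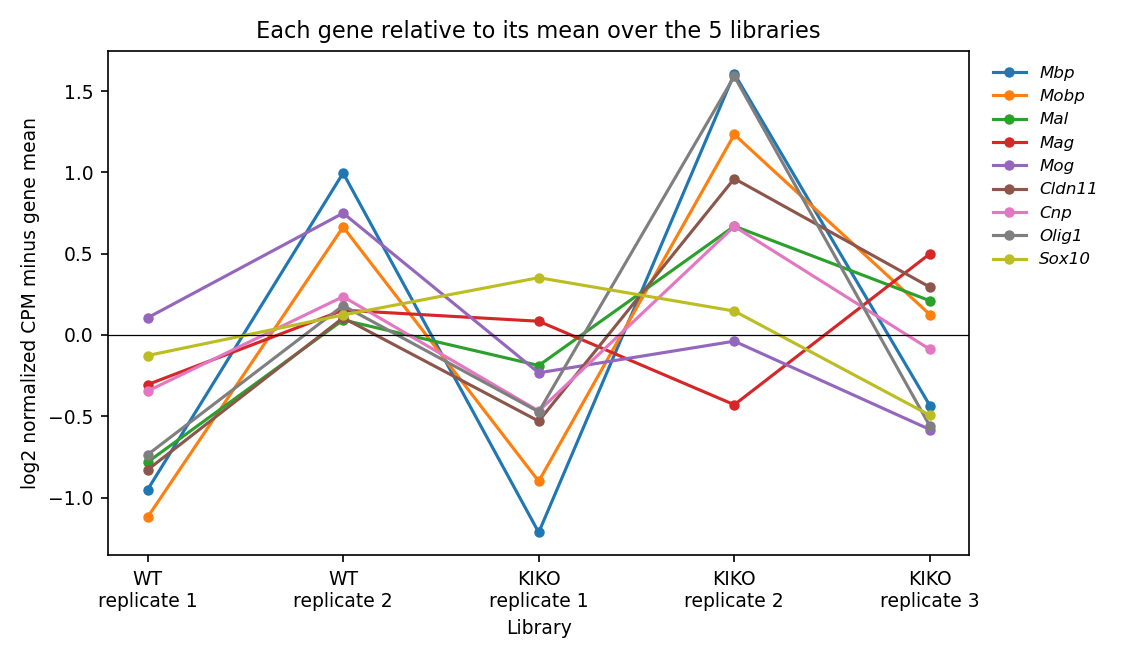
Log2 normalized CPM of each of the 9 genes minus its own mean over the 5 libraries (vertical axis), by library (horizontal axis), with 1 line per gene. *Mbp* and *Mobp* rise above their means in both libraries numbered 2, while *Mag* falls to its lowest point in KIKO replicate 2.

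Against all tested genes, the difference between libraries within a genotype was described by its size. WT replicate 2 had a median of 1.84 times the level of WT replicate 1 over the 9 genes and 1 times over all tested genes. KIKO replicate 2 had a median of 1.91 times the mean of the other KIKO libraries over the 9 genes and 0.946 times over all tested genes. *Mbp* and *Mobp* were more than 2-fold higher in both libraries numbered 2 (2 of 9, 22.2%), as were 4.41% of all tested genes. The 2-fold limit was chosen after the values were seen. KIKO replicate 2 was the highest library for 6 of the 9 genes (66.7%) and for 33.9% of all tested genes. Among the lists described below, it was highest for 49.1% of the other oligodendrocyte genes, 75% of the microglial and 80% of the choroid plexus genes. It was highest for 28.6% of the astrocyte genes and 0% of the granule and Purkinje neuron genes. The labels do not say that a replicate number marks a shared batch. In a bulk sample, fewer cells of a type and less RNA per cell cannot be told apart.

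The mitochondrial share of counts was highest in the same libraries as the sum of the 9 genes. The 13 protein-coding genes of the mitochondrial genome made up 4.32% and 7.63% of counts in WT replicates 1 and 2, and 3.80%, 8.77% and 4.13% in KIKO replicates 1, 2 and 3. *Malat1* was at 38298 and 28494 CPM in WT and at 28368, 765 and 25852 CPM in KIKO, and was low in KIKO replicate 2 but not in WT replicate 2. Their part in the levels of the 9 genes was not tested.

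The comparison of KIKO with WT asked whether these transcripts differ between the genotypes. Of the 9 genes, 0 passed the thresholds of the study, which are an unadjusted p under 0.05 together with a log2 fold change past 0.75 in either direction. Over all tested genes 1.2% passed, 0.716% with KIKO higher and 0.487% with KIKO lower. At an adjusted p under 0.05, 0 of the 9 genes and 0% of all genes passed in edgeR, where 131 genes and 0 of the 9 had an unadjusted p under 0.05. DESeq2 and limma likewise called 0 of the 9 genes at either threshold. The estimate was above 0 for 8 genes and below 0 for *Mog*, with a median log2 fold change of 0.16 over the 9 genes and 0.02 over all tested genes. All 9 confidence intervals included 0.

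The precision sets what could have been seen. The median SE of the 9 log2 fold changes was 0.50, and for *Mbp* the interval reached from -1.88 to 2.21, which holds changes of more than 2-fold in either direction. Without KIKO replicate 2, 3 of the 9 genes had estimates above 0 and the median was -0.26. *Mbp* and *Mog* then passed the thresholds as lower in KIKO (2 of 9), as did 3.51% of the genes tested without that library, and 0 of the 9 passed at an adjusted p under 0.05.

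**Figure D3:**
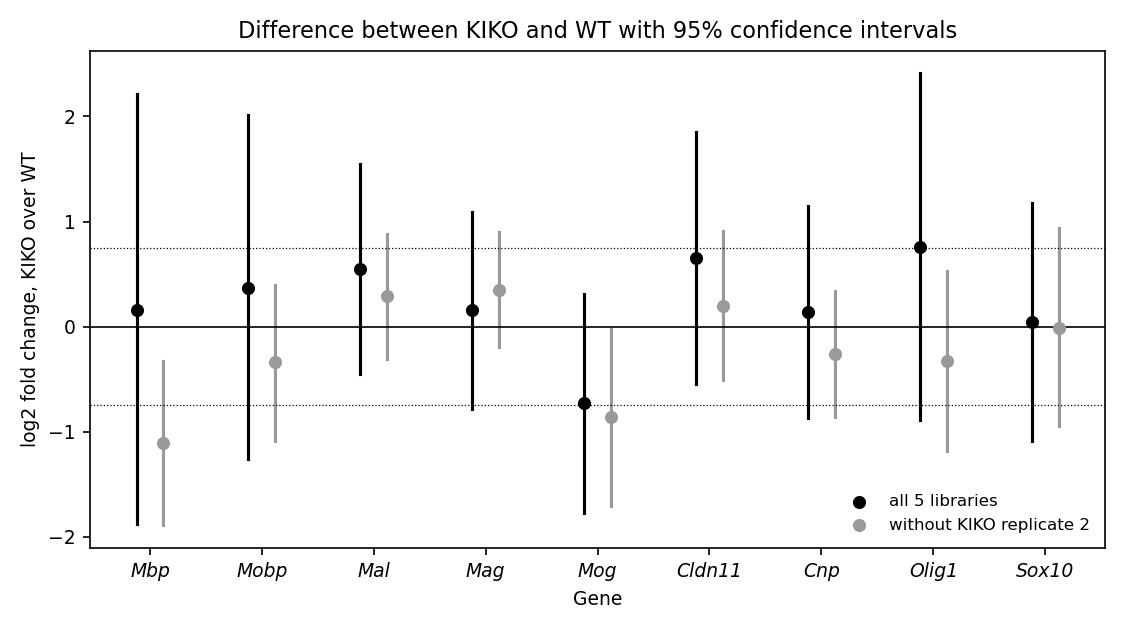
Log2 fold change, KIKO over WT, of the 9 genes with 95% confidence intervals (vertical lines), in all 5 libraries (black) and without KIKO replicate 2 (grey); dotted lines mark 0.75 in either direction. All 9 black intervals cross 0, and the grey value of *Mbp*, -1.11, lies on the other side of 0 from its black value of 0.16.

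Beyond the 9 genes, 67 other genes of the oligodendrocyte lineage were listed by role, of which 57 could be tested. Among the 57, 1 passed the thresholds with KIKO higher, *Tspan2*, and 0 with KIKO lower, beside 0.716% and 0.487% of all tested genes. At an adjusted p under 0.05, 0 passed. Estimates were above 0 for 41 and below 0 for 16, with a median log2 fold change of 0.21. Over all tested genes they were above 0 for 5648 of 10889, with a median of 0.02. Without KIKO replicate 2, 26 of 55 tested genes of these lists had estimates above 0 and the median was -0.03. Then 2 genes passed with KIKO higher, *Vcan* and *Hapln2*, and 0 with KIKO lower, beside 2.94% and 3.51% of all genes tested without that library. *Hapln2*, which encodes a link protein at the nodes of Ranvier, had a log2 fold change of 0.92 there (SE 0.43, unadjusted p = 0.0439, adjusted p = 0.588 in edgeR's test).

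*Tspan2*, a tetraspanin of oligodendrocyte membranes, was at 8.97 and 12.9 CPM in WT and at 18.1, 98.1 and 26.4 CPM in KIKO. All KIKO libraries lay above both WT libraries, as for 8.2% of all tested genes, with KIKO replicate 2 far above the rest. Its means were 10.9 ± 2.78 CPM (SD, n = 2) and 47.6 ± 44.0 CPM (SD, n = 3). Its log2 fold change was 2.11 (SE 0.82), with an unadjusted p of 0.0312 and an adjusted p of 1 in edgeR's test. Without KIKO replicate 2 it was 0.99, with an unadjusted p of 0.0989 in edgeR's test, and it did not pass. Its exons overlap those of *Tspan2os* on the opposite strand.

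Of the 21 genes for membrane, junction and adhesion proteins, 20 were tested and 17 had estimates above 0, with a median of 0.26. With KIKO replicate 2 left out these were 11 of 19 and 0.09. *Tspan2* belongs to this group and had its highest estimate.

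Of the 9 other transcription factors, 7 were tested, and 3 had estimates above 0, as did 3 of 7 without KIKO replicate 2. *Olig2*, the partner of *Olig1* in specifying the lineage, was at 11 and 31.1 CPM in WT and at 15.8, 56.4 and 25.4 CPM in KIKO, highest in the libraries numbered 2, and its log2 fold change of 0.62 (SE 0.71) became -0.08 without KIKO replicate 2. *Myrf*, the factor needed to keep myelin genes on, was at 27.9 and 32.6 CPM in WT and at 41.0, 85.8 and 32.5 CPM in KIKO, a log2 fold change of 0.81 (SE 0.53, edgeR adjusted p = 1) that became 0.28 without KIKO replicate 2. *Zfp536*, with the highest mean count of this list and also expressed in neurons, went the other way in KIKO replicate 2, with 28.6 CPM there and between 142 and 159 CPM in the other libraries. Its log2 fold change was -0.52 (SE 0.62) and -0.07 without that library.

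Of the 8 enzymes of myelin lipid synthesis, 7 were tested and 5 had estimates above 0, with a median of 0.08. These became 4 of 7 and 0.11 without KIKO replicate 2. *Cers2*, which makes very-long-chain ceramides, was at 42.8 and 76.6 CPM in WT and at 85.2, 203 and 60.9 CPM in KIKO, a log2 fold change of 0.96 (SE 0.58, edgeR adjusted p = 1) that became 0.28 without KIKO replicate 2. Of the 18 other genes of mature oligodendrocytes, 17 were tested and 12 had estimates above 0, with a median of 0.29. The direction of this list turned without KIKO replicate 2, with 5 of 16 above 0 and a median of -0.29. *Trf*, the iron carrier transferrin that oligodendrocytes make, was at 221 and 397 CPM in WT and at 280, 443 and 351 CPM in KIKO, a narrower range than that of *Mbp*, with a log2 fold change of 0.21 (SE 0.42), and 0.02 without KIKO replicate 2.

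Of the 11 genes of precursors and newly formed oligodendrocytes, 6 were tested and 4 had estimates above 0, with a median of 0.09. Leaving out KIKO replicate 2 made these 3 of 6 and 0.22. *Cspg4*, which encodes the NG2 proteoglycan of precursors and is also found on pericytes, was at 16.9 and 35.6 CPM in WT and at 23.7, 5.41 and 21.3 CPM in KIKO. Its log2 fold change was -0.66 (SE 0.71) and -0.25 without KIKO replicate 2. *Vcan*, which encodes the matrix proteoglycan versican and had the highest mean count of this list, was likewise lowest in KIKO replicate 2, at 7.73 CPM against between 15.9 and 57.8 CPM in the others. Its log2 fold change was 0.79 (SE 0.78, edgeR adjusted p = 1). Without that library *Vcan* passed the thresholds with KIKO higher, at 1.26 (SE 0.42), with an unadjusted p of 0.00562 and an adjusted p of 0.413 in edgeR's test. *Pdgfra*, the growth factor receptor of precursors that fibroblasts also carry, had 2 and 7 counts in WT and 5, 26 and 4 counts in KIKO, too few to be tested.

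**Figure D4:**
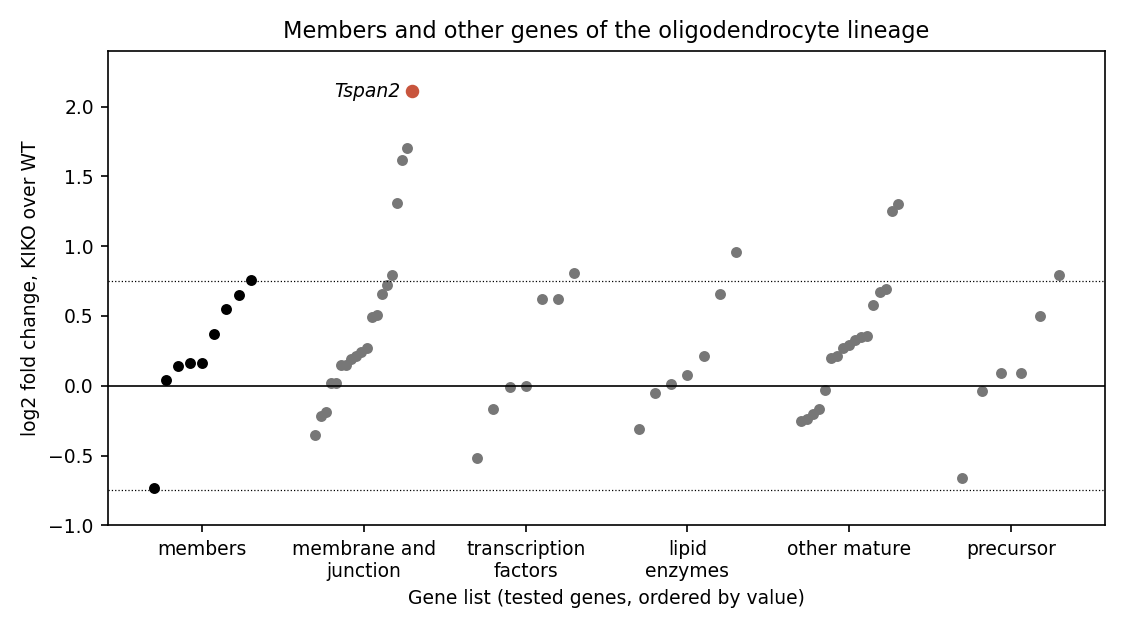
Log2 fold change, KIKO over WT, in all 5 libraries for the 9 genes (black, members) and the tested genes of 5 other oligodendrocyte lists (grey), ordered by value within a list; dotted lines mark 0.75 in either direction. *Tspan2* (red, 2.11) is the 1 gene that passed the thresholds.

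Genes of peripheral myelin were examined because Schwann cells share several of the 9 transcripts. *Pmp2*, which encodes a fatty acid binding protein of peripheral myelin, had 0 counts in all 5 libraries. *Prx*, the gene of periaxin, had 30 counts in KIKO replicate 2 and 0 in the other 4, which allows up to 3 counts in each. The list of 7 genes summed to between 149 and 275 CPM in WT and between 148 and 332 CPM in KIKO, most of it from *Pmp22*, a gene other cell types also use, at 124 and 249 CPM in WT and 162, 270 and 123 CPM in KIKO. Of the 7 genes, 2 could be tested and 0 passed the thresholds.

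Among markers of other cell types, the 12 microglial genes were all tested and 0 passed. They summed to 5417 and 6891 CPM in WT and to 4752, 12109 and 5492 CPM in KIKO. *Csf1r*, the growth factor receptor of microglia, with the highest mean count of the 12, was at 1049 and 1148 CPM in WT and at 877, 2667 and 1277 CPM in KIKO. KIKO replicate 2 was therefore highest for the microglial sum as for the sum of the 9 myelin and oligodendrocyte genes.

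Neuronal lists went the other way in the libraries numbered 2. The 7 granule neuron genes summed to 3531 and 2212 CPM in WT and to 3201, 1904 and 3296 CPM in KIKO, with *Rbfox3*, a neuronal splicing factor, at 1462 and 805 CPM in WT and at 1339, 422 and 1479 CPM in KIKO. The 6 Purkinje neuron genes, led by the calcium channel gene *Itpr1*, summed to 457 and 315 CPM in WT and to 661, 355 and 585 CPM in KIKO. Each neuronal sum was lower in the library numbered 2 than in the others of the same genotype. All 13 neuronal genes were tested and 0 passed.

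The 5 choroid plexus genes, led by *Ttr*, the transthyretin gene, summed to 10649 and 11701 CPM in WT and to 7929, 14215 and 6633 CPM in KIKO. The 9 genes of astrocytes and Bergmann glia, led by *S100b*, summed to 649 and 1376 CPM in WT and to 815, 1141 and 1012 CPM in KIKO. Of the 7 of them tested, *Gfap* passed the thresholds with KIKO higher, as did 0.716% of all tested genes. Its log2 fold change was 1.33 (SE 0.55, unadjusted p = 0.04, adjusted p = 1 in edgeR's test). The 7 endothelial and mural genes, led by *Flt1*, summed to 421 and 728 CPM in WT and to 447, 640 and 434 CPM in KIKO, and the 6 blood genes, led by *Hbb-bs*, to 1042 and 2759 CPM in WT and 1976, 2947 and 1690 CPM in KIKO. In these 4 lists the library numbered 2 was also the highest of its genotype. Some genes in the lists of other cell types passed the thresholds without KIKO replicate 2, given here with their log2 fold changes. With KIKO higher these were *Calb1* (1.37), *Car8* (0.96), *Gfap* (1.17) and *S100a9* (2.25). With KIKO lower they were *Itgam* (-0.79), *Folr1* (-1.43), *Kl* (-1.15) and *Clic6* (-1). The lowest adjusted p among them in edgeR's test was 0.209, for *S100a9*. Over all genes tested without that library, 2.94% passed with KIKO higher and 3.51% with KIKO lower. The part of differing cell content in the levels of the 9 genes was not tested.

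**Figure D5:**
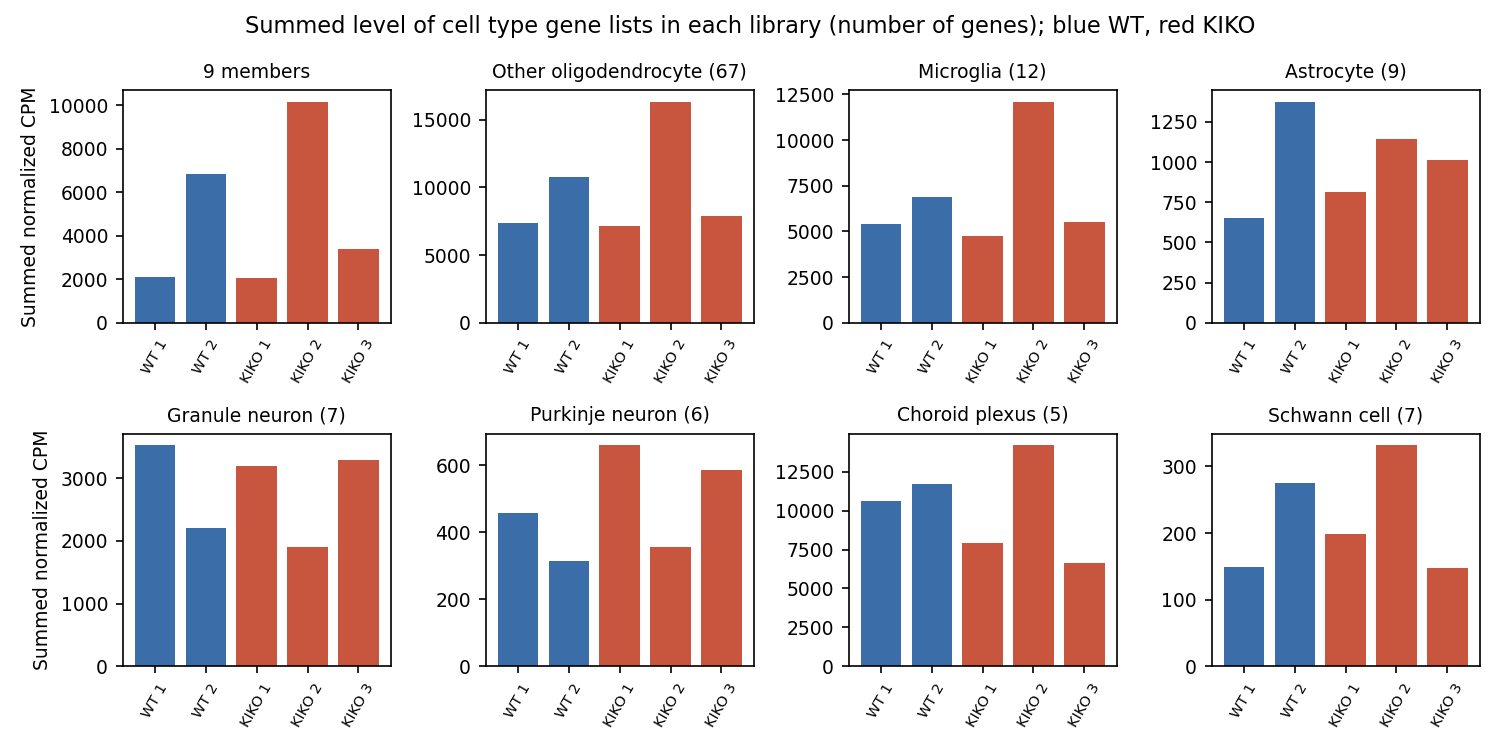
Summed normalized CPM (vertical axes, each from 0) of 8 gene lists in each library, with WT in blue and KIKO in red and the number of genes in brackets. The sum of the 9 genes is highest in KIKO replicate 2 (10168) and WT replicate 2 (6827), whereas the granule neuron sum is lowest in those libraries (1904 and 2212).

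The genes whose levels followed the mean profile of the 9 most closely were found among 4626 tested genes with a mean count of at least 50. Likeness was the root mean square difference, in log2 normalized CPM relative to each gene's own mean, over the 5 libraries. The closest were *Bcap31* (0.0569), *mt-Co1* (0.0587), *Serpine2* (0.0771), *Slc39a10* (0.0774) and *Pip4k2a* (0.0788), against a median of 0.596 over all candidates. Of the 9 genes themselves, *Cnp* lay nearest to their common profile, at 0.121, and *Mag* and *Mbp* farthest, at 0.636 and 0.652. *mt-Co1*, a mitochondrially encoded subunit of cytochrome c oxidase, was at 756 and 1561 CPM in WT and at 858, 2030 and 1070 CPM in KIKO. With 5 libraries, likeness of this kind is a description only.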

How the data were processed

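The authors' pipeline used Trimmomatic for trimming, HISAT2 for alignment to mm10 and featureCounts for counts per gene; the annotation and strand setting are not given in the sources used here. They deposited whole-number counts, analysed here, and log2 values. These have the form log2(count / size factor + 1), with 1 size factor per library solved from the deposited values. Undoing this form gave back 100% of the counts within 0.01. The paper names DESeq2 for normalization, and the solved factors were not compared with computed ones. The labels and the paper differ on the RNA kit and library kit. Each table holds 2 columns that match no sample label and were not used.

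Symbols came from GENCODE M21 on GRCm38 for 30934 of 31053 identifiers (99.6%). Genes were filtered with filterByExpr (minimum count 10, minimum total 15), scaled by TMM (factors between 0.9712 and 1.057) and tested two-sided with edgeR 4.0.16 (quasi-likelihood) in R 4.3.3, with Benjamini-Hochberg adjustment over 10889 genes. Normalized CPM are counts over the scaled library size. Confidence intervals are 95%, and counts of 0 allow up to 3 counts, for counting error only. Likeness used a pseudocount of 0.5 CPM. Alternatives were RLE factors, library size alone, other filters, DESeq2 1.42.0, limma 3.58.1 with trend on the deposited log2 values, the replicate number as a block, and leaving out each library.

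The fit was tested on simulated counts of 10454 genes for 2 against 3 libraries. Every gene was given the common biological coefficient of variation, 0.468. The thresholds called 31 of 100 genes changed 2-fold and 87 of 100 changed 4-fold, together with 498 unchanged genes. An adjusted p under 0.05 called 1 and 16 of the changed genes and 0 of the unchanged. The simulation had no library that stood apart. In the data the common value was 0.238 without KIKO replicate 2, that of *Mbp* was 0.649 with all libraries, and 131 genes passed the thresholds. The simulated rates therefore need not hold for these data.

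The 9 genes, the other lists and the tests were chosen with earlier results of these data known. Named besides the 9 were the gene with the highest mean count of each list, listed oligodendrocyte genes past the thresholds, *Pdgfra*, *Cspg4*, *Olig2*, *Myrf*, *Prx* and the 5 genes closest in profile. *Pmp2*, *Pmp22*, *Malat1*, *Gfap* and genes named only for passing without KIKO replicate 2 were named after their values were seen. The design allowed for a WT replicate 3, so the comparison became 2 against 3. Some items that the naming rule covers are not reported here.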

Additional observations from a re-analysis of the deposited data

How the results depend on the processing

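Of 108 values of the 9 genes under the alternatives, 93 kept their direction and their side of the thresholds, 1 came to pass them in the same direction (*Mog* without KIKO replicate 2) and 14 changed sign, of which *Mbp* without KIKO replicate 2 also passed; the smallest adjusted p was 0.421. The cause of the sign changes was not tested. Leaving out 1 library at a time gave log2 fold changes from -1.11 to 1.41 for *Mbp*, -0.34 to 1.5 for *Mobp*, -0.09 to 0.39 for *Mag*, -0.26 to 0.44 for *Cnp*, -0.33 to 1.27 for *Olig1*, -0.13 to 0.25 for *Sox10*, -0.08 to 1.54 for *Olig2* and -0.16 to 0.68 for *Trf*. With limma the value of *Mbp* was -0.03. The number of the 9 genes past the thresholds ranged from 0 to 2 and their median from -0.26 (without KIKO replicate 2) to 1.04 (without WT replicate 2), and the summed level, as a log2 ratio, from -0.72 to 1.28. Without either WT library the lone WT library is assumed to vary like the others.

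Over all genes, 131 passed, against 383 with every gene of at least 1 count kept, and between 56 (without WT replicate 1) and 669 (without KIKO replicate 2) with 1 library left out. Of the other oligodendrocyte genes 1 passed with KIKO higher, beside 78 of 10889 genes. With every gene of at least 1 count kept 5 did, beside 256 of 16822. With at least 10 counts in every library 0 did, beside 69 of 7675. In DESeq2 3 did, beside 96 of 10889. Leaving out KIKO replicate 1, 2 or 3 gave 2 each time, beside 69 of 10410, 305 of 10373 and 85 of 10620 genes. In each of these settings 0 of the other oligodendrocyte genes passed with KIKO lower. Deviations from the genotype mean correlated at 0.18 and 0.239 for same-numbered libraries, over 2 pairs. Between the genotypes, those of differently numbered libraries correlated at between -0.239 and 0.218. The deviations of the 2 WT libraries mirror each other, so the pairs are not independent. Whether a replicate number marks a shared batch was not tested. The replicate number as a block left 1 residual degree of freedom. KIKO replicate 3 had no WT library of its number, so the blocked comparison rested on replicates 1 and 2, KIKO replicate 2 included. There 271 of 10889 genes passed, 109 with KIKO higher and 162 with KIKO lower. Of the 9 genes 0 passed, and of the other oligodendrocyte genes 4 passed with KIKO higher and 0 with KIKO lower. *Mag* and *Vcan* turned to -0.10 and -0.06.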
